A study of Mus musculus with 6 samples.

Results

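The 9 genes described here encode secreted matricellular proteins and fibulins. They are Tnc (tenascin C), Postn (periostin), Thbs1 and Thbs2 (thrombospondins), Sparc, Fn1 (fibronectin) and the fibulin genes Fbln2, Fbln5 and Fbln7. All 9 are among the 12625 gene symbols of the count table. They were chosen by name, by a rule made with the contrast of RANKL against vehicle already known, so their levels, fold changes and calls in that contrast are a description and carry no test here. C2C12 is a mouse myoblast line that fuses into contractile myotubes in low serum. The RANKL group, 3 libraries, was C2C12 myotubes, differentiated for 5 days and then exposed for 72 h to recombinant mouse RANKL at 100 ng per ml. It was set against C2C12 myotubes given vehicle, also 3 libraries, and all RNA was isolated and sequenced together, per the labels. No differentiation day or exposure time is recorded for the vehicle libraries, and the design text of the series compares RANKL with untreated myotubes. RANKL is the TNF superfamily ligand of the receptor RANK. The labels do not say whether replicates were separate cultures, so the p-values reflect no more than the differences among these 6 libraries, and those may be technical.

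Matricellular proteins sit in the extracellular matrix but act mainly on how cells attach, migrate and receive growth factors, rather than as a load-bearing scaffold. They bind integrins, syndecans, CD47 and structural matrix proteins, and in skeletal muscle several are known from regeneration and fibrosis. Fibronectin is the adhesive glycoprotein on which much of the early matrix assembles. Fibulins are matrix glycoproteins with tandem calcium-binding EGF-like modules, several of which take part in elastic fibres and basement membranes.

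Tnc, Postn and Thbs2 were higher under RANKL, Thbs1 and Fbln7 were lower, and Sparc, Fn1, Fbln2 and Fbln5 were not called. In edgeR's quasi-likelihood fit over all genes, with Benjamini-Hochberg adjustment and a threshold of 0.05, 3 of the 9 were called higher and 2 lower, against a background of 5.35% of all genes called higher, 7.5% called lower and 12.9% called in either direction. Of all calls, 41.7% were higher with TMM scaling and 63.1% with total count scaling. Because the rule used this contrast, nothing is read from these counts. Over the 9 genes the log2 fold changes had a median of 0.07, and over all genes 0.00471. Without RANKL replicate 1, the library that stood furthest from its group, 3 were called higher and 2 lower. Without any 1 of the vehicle replicates, and with DESeq2, 2 were called higher and 2 lower, as Thbs2 lost its call. The levels of the 3 RANKL libraries and the 3 vehicle libraries did not overlap in 7 of the 9 genes, against 31.5% of all genes. Of these 7, 4 were above vehicle under RANKL and 3 were below.

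RefSeq promoter windows on GRCm38.p6 were found for 7 of the 9 genes. Thbs1 and Fn1 have no entry. The windows of the 3 genes called higher are shown, chosen by their calls in the contrast of RANKL against vehicle. Each holds the 250 bases upstream of the transcription start, on the strand of the gene and read 5′ to 3′, and capitals mark every match to 6 motifs on either strand. Tnc lies at chr4:64047016-64047265 on the minus strand, Postn at chr3:54360857-54361106 on the plus strand and Thbs2 at chr17:14694263-14694512 on the minus strand.
Tnc: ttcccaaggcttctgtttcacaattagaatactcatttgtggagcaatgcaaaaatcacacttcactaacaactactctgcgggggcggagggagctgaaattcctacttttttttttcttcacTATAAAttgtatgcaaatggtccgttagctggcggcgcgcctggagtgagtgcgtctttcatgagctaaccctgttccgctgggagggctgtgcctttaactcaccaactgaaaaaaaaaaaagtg
Postn: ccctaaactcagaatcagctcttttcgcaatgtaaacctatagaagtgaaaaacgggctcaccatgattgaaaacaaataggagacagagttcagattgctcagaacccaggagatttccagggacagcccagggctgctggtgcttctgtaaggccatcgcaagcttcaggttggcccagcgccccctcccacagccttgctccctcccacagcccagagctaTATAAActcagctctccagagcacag
Thbs2: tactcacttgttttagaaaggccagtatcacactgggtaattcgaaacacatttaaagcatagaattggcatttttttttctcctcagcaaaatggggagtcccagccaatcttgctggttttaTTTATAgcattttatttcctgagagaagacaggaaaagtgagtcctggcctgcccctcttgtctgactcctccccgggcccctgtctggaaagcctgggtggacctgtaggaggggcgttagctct

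In each of these 3 windows the capitals are a match to the TATA box, TATAAA, at 126 to 121 bases upstream in Tnc, at 26 to 21 in Postn and, on the opposite strand, at 126 to 121 in Thbs2. This motif is in 12.4% of the 32851 windows of the same length in the RefSeq table. Because the 3 windows were chosen by the calls of their genes, nothing is read from their matches against this share. An NF-kB-like motif, GGNNTTNCC, is in 13.5% of windows, the AP-1 motif TGANTCA in 6.75%, the TEAD motif GGAATG in 12.6%, the CArG box of serum response factor in 1.47% and the E-box CAGCTG of myogenic factors in 4271 windows. None of these 5 motifs, in the form searched, was found in the windows of Tnc, Postn or Thbs2. Other forms of these sites were not searched, so their absence is not shown. Of the other 4 genes with a window, Sparc held the E-box and Fbln7 the TEAD motif, 1 match each, and Fbln2 and Fbln5 held none of the 6. The starts used lay 3103 bases from the annotated gene start in Sparc, 951 in Fbln7, 309 in Fbln2 and 64 in Fbln5. A CArG box can hold a TATA box, and the NF-kB-like motif can hold the TEAD motif. A match describes letters only.

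Values per library are counts per 1000000 of the TMM-scaled library total (CPM). Periostin, a matricellular protein that binds collagens and integrins, showed the largest rise of the 9. Postn had 785, 622 and 564 CPM in RANKL replicates 1, 2 and 3, against 391, 401 and 365 CPM in vehicle replicates 1, 2 and 3. The lowest RANKL library stood above the highest vehicle library, and the RANKL libraries differed more among themselves than the vehicle libraries did. The means were 657 ± 114 CPM under RANKL and 386 ± 18.2 CPM under vehicle (SD, n = 3 each), a 1.70-fold difference and a log2 fold change of 0.77 ± 0.08 (SE).

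Tenascin C, a large hexameric glycoprotein that modulates adhesion to fibronectin, was also higher. Tnc had 298, 271 and 248 CPM in the RANKL libraries, against 192, 179 and 157 CPM in the vehicle libraries. The groups did not overlap, and each spanned a similar relative range. Its mean was 272 ± 25.1 CPM under RANKL and 176 ± 17.5 CPM under vehicle, 1.55-fold higher, with a log2 fold change of 0.63 ± 0.07.

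The thrombospondin pair moved in opposite directions. Thrombospondin 1 is a trimeric protein that binds CD47 and CD36 and can activate latent TGF-beta. Thbs1 had 1644, 1800.0 and 1863 CPM in the RANKL libraries, against 2361, 2457 and 2373 CPM in the vehicle libraries. Every RANKL library lay below every vehicle library, the lowest of the RANKL libraries being replicate 1. The means were 1769 ± 113 CPM under RANKL and 2397 ± 52.4 CPM under vehicle, a log2 fold change of -0.44 ± 0.04.

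Thrombospondin 2 shares that trimeric build but lacks the sequence by which thrombospondin 1 activates TGF-beta. Thbs2 had 158, 113 and 104 CPM in the RANKL libraries, against 103, 90.1 and 93.6 CPM in the vehicle libraries. RANKL replicate 1 stood apart, while RANKL replicate 3 was only just above vehicle replicate 1. The means were 125 ± 28.9 CPM under RANKL and 95.7 ± 6.90 CPM under vehicle, a log2 fold change of 0.39 ± 0.11. Without RANKL replicate 1 the log2 fold change was 0.18. The call ended without any one of the vehicle replicates, and DESeq2 did not make it.

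Fbln7 had the largest relative change of the 9 and the lowest level. Its product, fibulin 7, is an adhesion protein known from teeth and other tissues. Fbln7 had 218, 176 and 175 counts in the RANKL libraries, against 411, 319 and 406 counts in the vehicle libraries. In CPM these were 5.78, 5.17 and 5.28 under RANKL and 10.6, 9.59 and 10.99 under vehicle. The groups lay far apart relative to the spread within either. The means were 5.41 ± 0.326 CPM under RANKL and 10.4 ± 0.722 CPM under vehicle, and the log2 fold change was -0.94 ± 0.09.

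**Figure D1:**
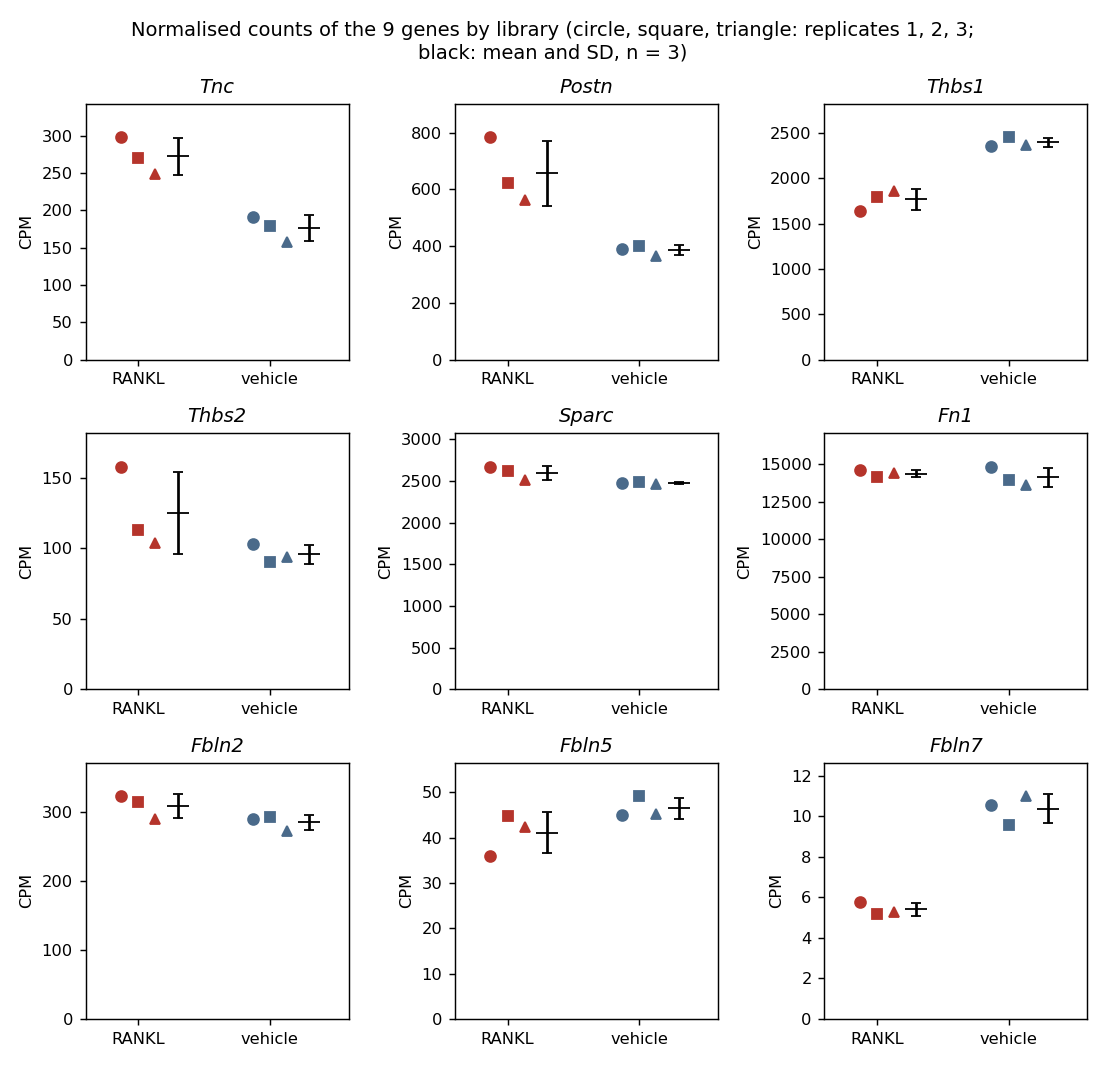
CPM of the 9 genes in each RANKL library (red, left) and each vehicle library (blue, right), with a linear axis from 0 in each panel; circles, squares and triangles are replicates 1, 2 and 3, and black bars give the mean and SD (n = 3). The groups are apart in Tnc, Postn, Thbs1, Thbs2, Sparc, Fbln5 and Fbln7, by a wide margin in Fbln7 and a narrow one in Thbs2, Sparc and Fbln5.

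The 2 most abundant of the 9 differed little between the groups. Fn1 had 14582, 14124 and 14393 CPM in the RANKL libraries, against 14825, 13907 and 13631 CPM in the vehicle libraries. These ranges overlapped, and the 95% interval of the log2 fold change ran from -0.06 to 0.11. Sparc, a collagen-binding glycoprotein also called osteonectin, had 2671, 2618 and 2506 CPM under RANKL, against 2481, 2481 and 2458 CPM under vehicle. The RANKL libraries lay above the vehicle libraries, but the log2 fold change was 0.07 with a 95% interval from -0.00193 to 0.14 and was not called.

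Fibulin 2 links basement membrane and elastic fibre proteins, and fibulin 5 is needed in mice for elastic fibre assembly. Fbln2 had 323, 315 and 290 CPM in the RANKL libraries, against 290, 293 and 273 CPM in the vehicle libraries, and the groups overlapped. Its log2 fold change was 0.11 (95% interval 0.02 to 0.20), with no call. Fbln5 had 36.0, 44.8 and 42.4 CPM in the RANKL libraries, against 45.1, 49.1 and 45.3 CPM in the vehicle libraries. RANKL replicate 2 lay just below the lowest vehicle library, and RANKL replicate 1 lay furthest below. The log2 fold change of Fbln5 was -0.18 (95% interval -0.32 to -0.04), also with no call, and -0.09 without RANKL replicate 1.

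**Figure D2:**
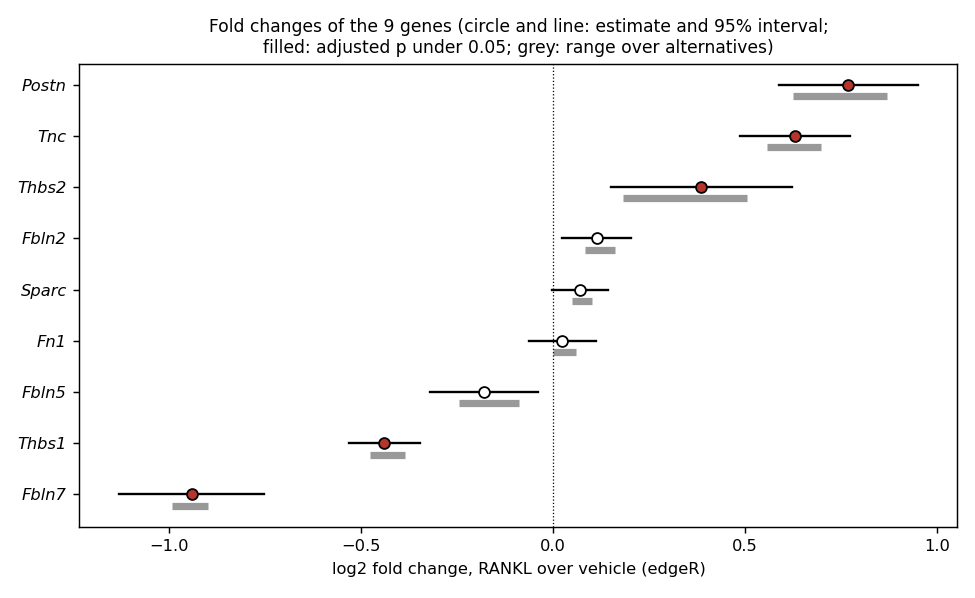
Log2 fold change, RANKL over vehicle, of the 9 genes from edgeR (circles) with its 95% interval (black lines), filled where the adjusted p was under 0.05; grey bars span the estimates over 14 alternatives. Postn, Tnc and Thbs2 lie above 0, Thbs1 and Fbln7 below, and the grey bar of Thbs2 runs from 0.18 to 0.51.

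Levels can be compared between genes only per length of transcript, for which the authors' log2 values, read as log2 RPKM (counts per 1000000 per kilobase), were used. In both groups the order was Fn1, Sparc, Thbs1, Postn, Fbln2, Tnc, Thbs2, Fbln5 and Fbln7, and the ranges of neighbours in that order did not overlap in either group. Fn1 had 1705 ± 27.3 RPKM under RANKL and 1676 ± 74.2 RPKM under vehicle (SD, n = 3 each), and took 1.43% to 1.47% of all counts in the RANKL libraries and 1.36% to 1.45% in the vehicle libraries. Sparc had 984 ± 32.0 RPKM under RANKL and 937 ± 5.18 RPKM under vehicle. Among 12625 genes ordered by mean log2 RPKM, Fn1 ranked 12th under RANKL and 13th under vehicle, and Sparc 28th under RANKL and 27th under vehicle.

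Thbs1 had 305 ± 19.4 RPKM under RANKL and 413 ± 9.02 RPKM under vehicle, far above its paralogue Thbs2 with 21.1 ± 4.88 RPKM under RANKL and 16.2 ± 1.17 RPKM under vehicle. Postn moved to rank 254 under RANKL, against rank 518 under vehicle, and Tnc to rank 1934 under RANKL, against rank 3058 under vehicle. Fbln7 was at 1.88 ± 0.112 RPKM under RANKL and 3.59 ± 0.248 RPKM under vehicle, at rank 10237 under RANKL and rank 9013 under vehicle. The place of Postn depends on its length: the deposited values imply 3.29 kb, whereas its annotated exons together cover 8.70 kb. With the annotated length, vehicle levels were 5.47 for Postn and 5.49 for Fbln2 in log2 CPM per kilobase, and these 2 genes changed places.

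**Figure D3:**
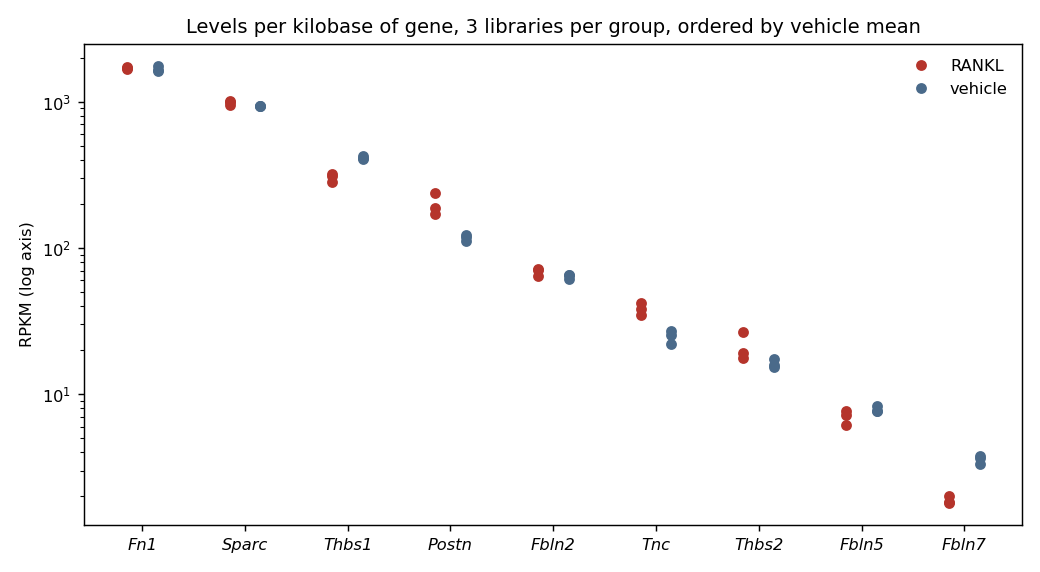
RPKM of the 9 genes on a log axis, 1 point per library, with RANKL (red) left of vehicle (blue) and genes ordered by their vehicle mean. The points fall from Fn1, whose lowest library had 1618 RPKM, to Fbln7, whose libraries had 1.80 to 2.01 RPKM under RANKL and 3.32 to 3.80 RPKM under vehicle.

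Libraries of 1 group differed in several of these genes together. RANKL replicate 1 was the highest RANKL library in 7 of the 9 genes and the lowest in the other 2, Thbs1 and Fbln5. RANKL replicate 3 was the lowest RANKL library in 5 genes, Tnc, Postn, Thbs2, Sparc and Fbln2. The highest RANKL library exceeded the lowest 1.52-fold for Thbs2 and 1.39-fold for Postn, but only 1.03-fold for Fn1. In vehicle, replicate 3 was the lowest in 5 genes, and the widest range was 1.22-fold, for Tnc.

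**Figure D4:**
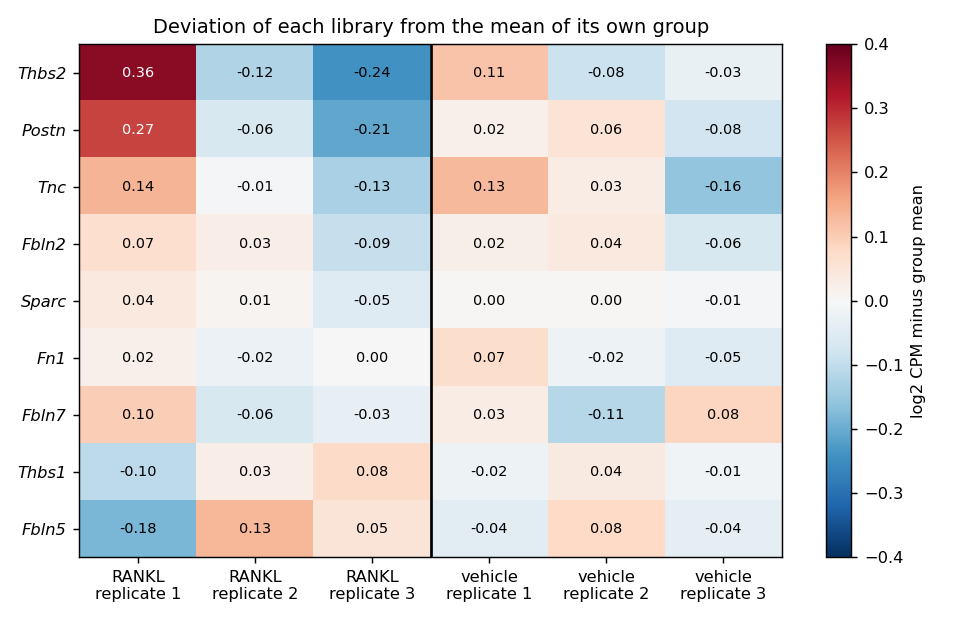
Log2 CPM of each library minus the mean of its own group, for the 9 genes (rows) in RANKL libraries (left) and vehicle libraries (right); red is above and blue below the group mean. The largest deviations, 0.36 for Thbs2 and 0.27 for Postn, are those of RANKL replicate 1, which lies below its group mean for Thbs1 and Fbln5.

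Markers of dividing or undifferentiated myoblasts did not all move in 1 direction. Of 11 such markers measured, 5 were called higher under RANKL and 1 lower, against 5.35% and 7.5% of all genes. The same shares stand beside the counts of the other marker lists. These lists were chosen with earlier results of these data known, so nothing is read from the counts. All 5 that rose, Mki67, Top2a, Cdk1, Ccnb1 and Ccna2, are cell cycle genes, and the 1 called lower was Hes1, at -0.23 on the log2 scale. The summed level over the 11 was 218, 199 and 194 CPM in RANKL replicates 1, 2 and 3, against 167 to 173 CPM in the vehicle libraries. Pax7 and Myf5, which mark myoblasts rather than division, were not called, nor were Id1, Id2 and Id3. Of these, Pax7, Id1 and Id3 had negative log2 fold changes, and Myf5 and Id2 positive ones. The 10 myotube markers summed to between 20822 and 21309.8 CPM under RANKL and 22499 to 22577 CPM under vehicle. Both groups thus carried transcripts of the labelled cell type, with every RANKL library below every vehicle library in this sum. Of the 10, 4 were called lower, Acta1, Myh3, Myh8 and Actn2, and 6 were not called. The 8 fibroblast markers measured summed to 728 to 743 CPM under RANKL and 738 to 766 CPM under vehicle, with 1 called in each direction, Cd34 higher and Pdgfrb lower. Thy1 and Tcf21 were not found among the gene symbols with counts. The 3 immune markers measured of 9 summed to 5.82 to 6.95 CPM under RANKL and 4.66 to 5.31 CPM under vehicle, with 0 called by edgeR. The other 6, Ptprc, Adgre1, Csf1r, Lyz2, Tyrobp and Fcer1g, were not found among the gene symbols with counts. Those symbols all reached at least 0.504 CPM, before TMM scaling, in 3 or more libraries, so absence can mean a low level. What part these cell types had in the values of the 9 genes was not tested. In bulk RNA, fewer cells of a type and less RNA per cell cannot be told apart.

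Other genes of the pathway were taken from 6 lists of 90 genes, of which 75 were measured. Together 14 were called higher (18.7%) and 19 lower (25.3%), against 5.35% and 7.5% of all genes. The same shares of all genes stand beside the counts of each list below. The lists were chosen with earlier results of these data known, so nothing is read from these counts. These counts were 9 and 12 without vehicle replicate 1, the lower count was 11 without vehicle replicate 2, and the higher count was 7 without vehicle replicate 3. Among 11 other matricellular genes measured, 4 were higher and 1 lower, and the median of their log2 fold changes was 0.10. Fstl1, a secreted SPARC-related glycoprotein, had 559 ± 18.5 CPM under RANKL and 456 ± 15.3 CPM under vehicle (SD, n = 3 each; adjusted p = 9.77e-05, edgeR). Smoc2, also related to SPARC, had a log2 fold change of 0.53 ± 0.11 (SE; adjusted p = 0.00562, edgeR), and Spock2, a SPARC-family proteoglycan, -0.26 ± 0.08 (adjusted p = 0.0374, edgeR). Spock2, the 1 called lower, kept its call in 8 of 14 alternatives and lost it with total count scaling and without any 1 library other than RANKL replicate 3. The other 2 that rose, Tnr and Wisp1, were named after their values were seen. Tnr lost its call without RANKL replicate 1, vehicle replicate 1 or vehicle replicate 3, and Wisp1 without RANKL replicate 2 or 3 or any 1 vehicle replicate. The YAP-responsive Cyr61 and Ctgf, likewise named after their values were seen, had log2 fold changes of -0.10 ± 0.06 and -0.13 ± 0.06 and were not called.

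Of 4 other fibulins and hemicentins, 1 was called. Hmcn1, the long hemicentin 1 also named fibulin 6, had 27.7 ± 4.54 CPM under RANKL and 15.5 ± 2.32 CPM under vehicle, a log2 fold change of 0.84 ± 0.11 (SE; adjusted p = 0.000203, edgeR). Of 14 elastic fibre and microfibril genes measured, 5 were higher and 2 lower, with 3 to 6 higher and 1 to 2 lower over the alternatives. Fbn1, the main microfibril protein, had 1411 ± 115 CPM under RANKL and 1165 ± 73.7 CPM under vehicle (adjusted p = 0.00399, edgeR), and Loxl2, a lysyl oxidase-like crosslinking enzyme, had a log2 fold change of 0.27 ± 0.06. Ltbp3 and Ltbp1, which hold latent TGF-beta in the matrix, had log2 fold changes of -0.21 ± 0.03 and -0.13 ± 0.04, both called lower. Ltbp3 kept its call in all 14 alternatives and Ltbp1 in 7, losing it with total count scaling, with the length trend removed and without any 1 library other than RANKL replicate 3.

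Of 18 receptors measured, 2 were called higher and 2 lower, against 5.35% and 7.5% of all genes. With total count scaling 3 were higher and 0 lower. Cd47, a receptor for thrombospondin 1, had 59.5 ± 2.43 CPM under RANKL and 47.8 ± 2.19 CPM under vehicle (adjusted p = 0.000383, edgeR). Itgb3, a subunit of the integrin that binds fibronectin, thrombospondin and periostin through its partner alpha v, had a log2 fold change of 0.23 ± 0.06 and was not called without vehicle replicate 2 or 3. Itgb5 and Lrp1, an endocytic receptor that clears thrombospondins, had log2 fold changes of -0.13 ± 0.04 and -0.14 ± 0.04 and were called lower, each in 9 of 14 alternatives. Besides total count scaling, Itgb5 lost its call without RANKL replicate 1 or any 1 vehicle replicate, and Lrp1 without RANKL replicate 2 or 3 or vehicle replicate 1 or 2.

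Of 13 TGF-beta ligands, receptors and SMADs, 4 were lower and 1 higher, and 4 were called lower under every alternative run. Ski, a SMAD corepressor, and Tgfb3, a TGF-beta ligand, had log2 fold changes of -0.20 ± 0.03 and -0.23 ± 0.04 (adjusted p = 0.000918 and 0.00117, edgeR). Tgfbr3, a co-receptor, had 0.21 ± 0.05 and was not called without vehicle replicate 1 or 3. Of 15 YAP, TEAD and SRF regulators, 10 were lower and 1 higher. Their median was -0.14 on the log2 scale, and 8 were lower with total count scaling. Amotl1, a YAP-binding angiomotin, had 401 ± 4.13 CPM under RANKL and 459 ± 10.8 CPM under vehicle (adjusted p = 0.000948, edgeR), and Tead3, a DNA-binding partner of YAP, had a log2 fold change of -0.23 ± 0.04. Ankrd1, a cardiac ankyrin repeat gene that responds to YAP, was the 1 called higher, at 0.11 ± 0.03, and lost its call without RANKL replicate 2 or vehicle replicate 2 or 3. Without vehicle replicate 2 the number called lower in this list was 6.

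**Figure D5:**
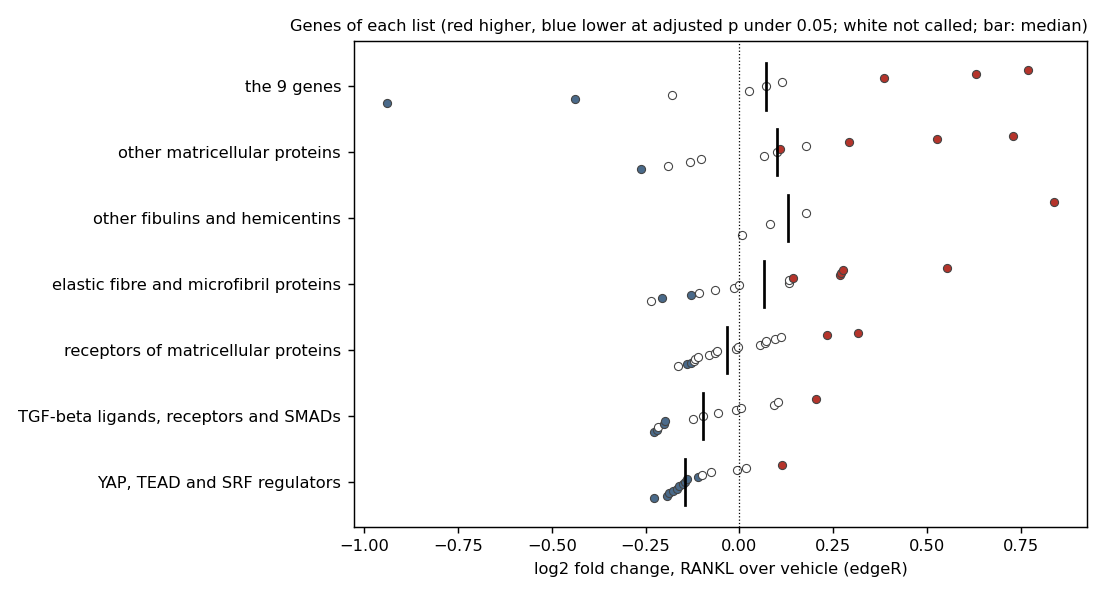
Log2 fold change, RANKL over vehicle, of every measured gene in the 9-gene group and in 6 related lists, 1 point per gene, red where called higher, blue where called lower and white where not called, with a bar at the median. The YAP, TEAD and SRF list lies mostly left of 0 with its median at -0.14, whereas the 9 genes spread from -0.94 to 0.77.

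For each of the 9 genes the 2 closest profiles were taken, by mean absolute difference of log2 CPM over the 6 libraries after centring each gene. Genes averaging under 1 CPM, or with a count of 0, were left out. For Postn these were Lama1 (0.05) and Rnase6 (0.06), and for Tnc they were Gm12185 and H2-Q4 (both 0.06). For Thbs2 they were Hsd17b13 (0.03) and Tenm4 (0.04), for Thbs1 Mrgprf and Cmklr1 (both 0.04), and for Fbln7 Adra1d (0.12) and Mn1 (0.15). Among the 9 themselves, Tnc and Postn lay 0.07 apart, while Thbs1 and Thbs2 lay 0.40 apart. Sparc, Fn1, Fbln2 and Fbln5 had neighbours within 0.03, whose log2 fold changes lay between -0.22 and 0.11. Centring over the 6 libraries keeps the difference between the groups, so close profiles share similar fold changes by construction. These distances largely restate the contrast and are a description only.

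On the mm10 build (GENCODE M21), Fn1 lies on chromosome 1 from 71585520 to 71653200, Postn on chromosome 3 from 54361109 to 54391037, Tnc on chromosome 4 from 63959785 to 64047015 and Thbs2 on chromosome 17 from 14665500 to 14694235. Thbs1 and Fbln7 both lie on chromosome 2, from 118111876 to 118127133 and from 128862981 to 128897034. Sparc lies on chromosome 11 from 55394500 to 55423183, Fbln2 on chromosome 6 from 91212455 to 91272540 and Fbln5 on chromosome 12 from 101746565 to 101819055. Each of the 9 is annotated as protein-coding. Exons of Tnc, Thbs1 and Fn1 share 176, 208 and 292 bases with a gene on the opposite strand. Whether counting used strand is unknown here, so reads from the shared bases cannot be told apart. Fn1, Tnc and Postn are known for alternative exons, which counts per gene do not separate.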

How the data were processed

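RNA of 6 libraries, 3 RANKL and 3 vehicle, was analysed from the count table that the authors deposited, which holds raw counts for 12625 gene symbols and 4708 empty lines that were left out. Per the submitters' processing notes, FastQC, STAR, edgeR and mm10 were used; the sources used here give no roles, versions, counter or use of strand. The second table the authors deposited holds log2 values, which against the raw counts read as log2 RPKM; gene lengths were derived from both tables. The sources name neither its unit nor its log base. Total counts were 32732604 to 37445933 in RANKL libraries and 33566746 to 39677999 in vehicle libraries. Every gene with counts reached at least 0.504 CPM, before TMM scaling, in 3 or more libraries. Shares and ranks over all genes therefore cover only genes above this level. Chi-square per gene between replicate pairs was 3.39 to 9.52, above sampling noise, so each counted as 1 sample.

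All genes were fitted with edgeR 4.0.16 in R 4.3.3 (TMM, filterByExpr, which removed 0 genes, quasi-likelihood F test, Benjamini-Hochberg), RANKL over vehicle. SE is the size of the log2 fold change divided by the square root of F. Alternatives used DESeq2 1.42.0, limma-voom (limma 3.58.1), other scalings and filters, a loess trend on gene length (span 0.5), a replicate block and each library left out. The steps were tested on simulated data. The 9 genes, the 6 lists and the marker lists were chosen with earlier results of these data known. Named from each list were up to 2 genes called in each direction by smallest p, or the smallest p where none was called. Promoter windows are from RefSeq, GRCm38.p6, using the start nearest to the GENCODE gene start.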

Additional observations from a re-analysis of the deposited data

How the results depend on the processing

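Over 14 alternatives, Tnc, Postn, Thbs1 and Fbln7 kept their direction and their call. Their log2 fold changes ranged from 0.56 to 0.70 for Tnc, 0.62 to 0.87 for Postn, -0.47 to -0.39 for Thbs1 and -0.99 to -0.90 for Fbln7. Thbs2 ranged from 0.18 to 0.51 and was called in 10 of 14, but not by DESeq2 nor without vehicle replicate 1, 2 or 3. Fbln2 was called with total count scaling, with the replicate block and without RANKL replicate 3, and Fbln5 with the replicate block and without RANKL replicate 2. Sparc and Fn1 were called in none of the 14, and Fn1 stood at -2.71e-05 without vehicle replicate 3.

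Over all genes, 676 were called higher and 947 lower. Total count scaling gave 1070 and 626, so that 63.1% of calls were higher against 41.7%. With the length trend removed, 691 were called higher and 1213 lower, and 36.3% of calls were higher. Leaving out 1 library gave 373 to 746 higher and 537 to 880 lower over all genes, and 7 to 14 higher and 11 to 20 lower in the 6 lists together. Leaving out vehicle replicate 1 or 2 lowered both counts over all genes by more than 1.5 times, and leaving out RANKL replicate 2 did so for genes called lower (596). The cause was not tested.

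Same-numbered libraries deviated together with correlations of 0.132, 0.0581 and 0.00909, so the numbers were not taken as pairs, and not every library correlated best with its own number. With the replicate block 730 genes were called higher and 1008 lower, and of the 9 genes 4 were higher and 3 lower. With exon lengths from the annotation, vehicle levels in log2 CPM per kilobase were 10.24 for Fn1, 9.35 for Sparc, 8.62 for Thbs1, 5.49 for Fbln2, 5.47 for Postn, 3.77 for Thbs2, 2.75 for Fbln5 and 1.68 for Fbln7, and the order changed only for Postn and Fbln2. Depth limits Fbln7 most, at 175 to 411 counts per library.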
